A study of Rattus norvegicus with 18 samples.

Results

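Neonatal rat cardiomyocytes that had spent 24 h in a medium conditioned by stem cells were compared with the same kind of culture before that medium was added (time zero). Cells came from the ventricles of day 1 rats (n = 24), were purified on Percoll gradients and held for 24 h in cardiac medium, when the time zero dishes were extracted without treatment. The other dishes had their cardiac medium diluted to 50% with hESC medium, conditioned by stem cells or unconditioned, with FBS held at 5% and HS at 10%, and were extracted after 24 h or 48 h. All 9 samples of conditioned medium at 24 h (3 samples) and time zero (6 samples) were used, of 18 in the series, and the labels alone chose them. The total RNA, labelled with biotin, went onto 1-colour CodeLink arrays, of which 2 designs were used. The test rests on the larger design, with 2 conditioned arrays (replicates 2 and 3) and 4 time zero arrays (replicates 3 to 6). The smaller design, with 1 conditioned and 2 time zero arrays, gave directions only. Conditioned and time zero cells differ in the medium, in its conditioning and in 24 h more of culture, and these cannot be told apart in this comparison. The unconditioned arrays at 24 h share the dilution and the time. The design text describes 1 harvest and counts 18 dishes, as many as there are samples, without tying a dish to an array. The p-values therefore reflect at most the spread between dishes of that harvest, and may reflect a technical one. With bulk RNA, fewer cells of a type and less RNA per cell cannot be told apart.

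Cardiomyocytes of newborn rats still switch from fetal to adult contractile isoforms and leave the cell cycle soon after birth. Cyclin D and its kinases start that cycle, CDK inhibitors hold it, and mitotic genes follow when a cell divides. Cytokines of the interleukin-6 family act on these cells through gp130 and STAT3, and growth factors through ERK, which switches on immediate early genes. TGF-beta and BMP ligands act through SMAD proteins, with the Id genes among the classical BMP targets.

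Values are intensities scaled to the same array median, 96.8, with a floor at 4.84, and are given in the order of the replicate numbers. Changes are log2 differences ± SE from the fit, after subtracting the median over the 23694 probes tested, which was 0.18. A probe was called at a limma adjusted p under 0.05 for its change before that median was subtracted. "Rose" and "fell" are used only of called genes. The first principal component of the arrays held 35.1% of the variance and set 3 arrays apart, replicates 4 and 5 of time zero and replicate 2 of unconditioned medium at 48 h, whose ratio of upper to lower quartile was 22.4 to 25.7 against 38.7 to 47.8 on the other arrays. Across probes, the conditioned arrays correlated at a Pearson's r of 0.968 and pairs of time zero arrays at 0.840 to 0.952. Pairs of 1 conditioned and 1 time zero array ran from 0.835 to 0.937, which overlaps the range within time zero. The cardiomyocyte label matched its markers. Tnnt2, the cardiac troponin T that anchors the thin filament regulator, gave 28369 and 23049 on the conditioned arrays and 33099.5, 23583, 16294 and 26637 at time zero. Nppa, the atrial natriuretic peptide, gave 31466 and 26718 and 32410.3, 18071, 17742 and 28301. Neither passed (-0.10 ± 0.35 and 0.13 ± 0.32, adjusted p = 0.942 and 0.713). No probe carried the symbol Myh6.

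Most genes that passed were higher in conditioned medium. Of 9953 genes, each taken from its brightest probe by mean level, 383 passed (3.85%), of which 322 rose (3.24%) and 61 fell (0.613%). The called increases ran from 0.93 to 5.62 with a median of 1.54, and the called decreases from -1.36 to -5.31 with a median of -1.86. More than 4-fold increases numbered 100 and more than 4-fold decreases 28. Over all probes, 751 of 23694 passed (3.17%), 463 of them with 1 gene symbol and 288 with none or several. On all 383 genes both conditioned arrays lay outside the 4 time zero arrays, a pattern that 23.4% of all genes showed upward and 4.55% downward. The balance of directions depended on the arrays and the scaling. Without the 3 arrays that stood apart 607 genes rose and 512 fell, and all 383 genes were again called. After quantile normalization 743 rose and 384 fell, with 375 of the 383 again called. Tested against the median change in place of zero, 204 genes rose and 74 fell, with 265 of the 383 among them. Over all probes 199 and 185 passed without conditioned replicate 2 or 3, and 1204 without time zero replicate 6. With so few arrays a gene that did not pass may still have changed.

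**Figure D1:**
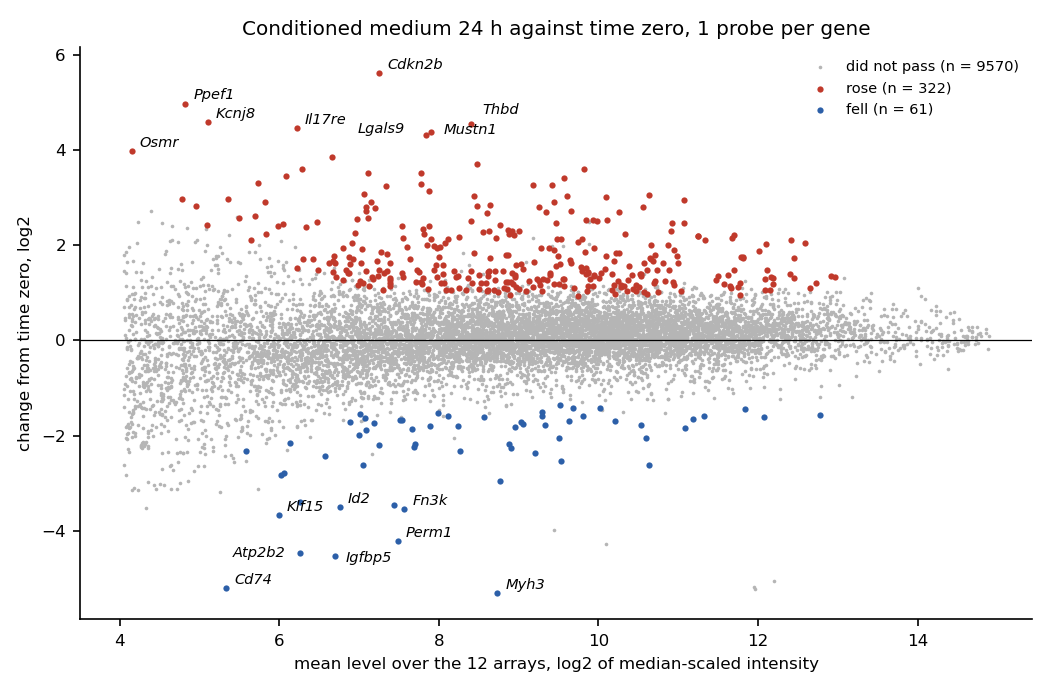
Each point is 1 of 9953 genes. The horizontal axis gives its mean log2 level over the 12 arrays and the vertical axis its log2 change from time zero in conditioned medium at 24 h, less the median change over all probes. Red points rose (322), blue points fell (61) and grey points did not pass. Cdkn2b is the highest at 5.62 and Myh3 the lowest called gene at -5.31.

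The 15 largest increases were led by Cdkn2b, Ppef1, Kcnj8 and Thbd. Cdkn2b, an inhibitor of the cyclin D kinases, gave 628 and 585 on the conditioned arrays and 4.84, 5.40, 53.3 and 10.1 at time zero. Both conditioned arrays were above all time zero arrays, of which replicate 3 was at the floor and replicate 5 was highest. It rose by 5.62 ± 0.66, adjusted p = 6.11e-05. Kcnj8, the pore subunit of an ATP-sensitive potassium channel, gave 442 and 419.6 against 8.26, 21.6, 72.9 and 4.84. Its time zero arrays differed widely among themselves and all stayed below the conditioned pair (4.58 ± 0.94, adjusted p = 0.00732). Thbd, thrombomodulin of the vessel wall, gave 1788 and 2009 against 72.0, 83.7, 59.3 and 73.2, a narrow range on both sides (4.55 ± 0.30, adjusted p = 2.08e-07). Ppef1, a calcium-binding protein phosphatase, gave 161 and 185 while all 4 time zero arrays were at the floor. Its level was thus at least 35.7-fold higher before the median change was subtracted (adjusted p = 4.34e-04).

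The other large increases included Osmr, Reg3b and Nfkbiz. Osmr, the oncostatin M receptor, gave 151 and 161 against 4.84, 17.8, 5.00 and 13.9, with time zero replicate 3 at the floor (3.97 ± 0.97, adjusted p = 0.0235). Reg3b, a secreted lectin induced by interleukin-6 type cytokines, gave 2377 and 2915 against 359, 134, 127 and 161 (3.71 ± 0.41, adjusted p = 2.65e-05). Nfkbiz, a nuclear regulator of NF-kappa B target genes, gave 272 and 320.1 against 52.5, 16.8, 4.87 and 48.2 (3.61 ± 0.68, adjusted p = 0.00351). In all of these the lowest conditioned array was above the highest time zero array. Il17re, a subunit of the interleukin-17C receptor, gave 207 and 217 against 14.1, 15.9, 4.84 and 4.84, with time zero replicates 5 and 6 at the floor (4.46 ± 0.52, adjusted p = 6.11e-05). Lgals9, galectin-9, gave 738 and 1262 against 26.9, 39.9, 43.6 and 73.5 (4.31 ± 0.38, adjusted p = 4.52e-06). Fgl2, a prothrombinase of the fibrinogen family, gave 232 and 279 against 18.6, 22.4, 11.4 and 12.3 (3.85 ± 0.38, adjusted p = 8.61e-06). The arrays did not overlap in any of them. The remaining members of the 15 were Mustn1, a small nuclear protein of muscle and bone, Gja5, the gap junction protein connexin 40, Abi3, an actin regulator of the WAVE complex, Cyb561, a transmembrane cytochrome of secretory vesicles, and Mfap3l. Mustn1 gave 1007 and 1118 against 63.4, 17.6, 55.1 and 65.4 and Gja5 gave 3052 and 3117 against 297, 147, 206 and 280.3. They rose by 4.38 ± 0.45 and 3.60 ± 0.36 (adjusted p = 1.37e-05 and 8.61e-06). Abi3, Cyb561 and Mfap3l rose by 3.53 ± 0.54, 3.52 ± 0.38 and 3.45 ± 0.42 (adjusted p = 4.78e-04, 1.88e-05 and 6.11e-05). For some of these genes another probe moved less. The second probe of Thbd gave 0.34, that of Fgl2 by 1.65 and those of Gja5 by 0.04 and 0.96, while the second probe of Kcnj8 gave 6.14. Kcnj8 (adjusted p 0.155 and 0.16) and Nfkbiz (0.0575 and 0.0886) did not pass without conditioned replicate 2 or without replicate 3. Kcnj8 (adjusted p 0.0822) and Nfkbiz (0.0748) did not pass with no filter on dim probes. Fgl2 (adjusted p 0.0537) did not pass when the probes of a gene were averaged. The changes of Cdkn2b, Ppef1, Kcnj8, Il17re, Osmr, Fgl2, Nfkbiz and Mfap3l were 3.26, 2.07, 2.63, 2.08, 1.72, 2.11, 2.05 and 1.92 with a pseudocount of 0.5 of the median. The changes of Thbd and Gja5 were 2.46 and 1.54 when the probes of a gene were averaged. The change of Ppef1 was 2.996 with a floor of 0.2 of the median.

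**Figure D2:**
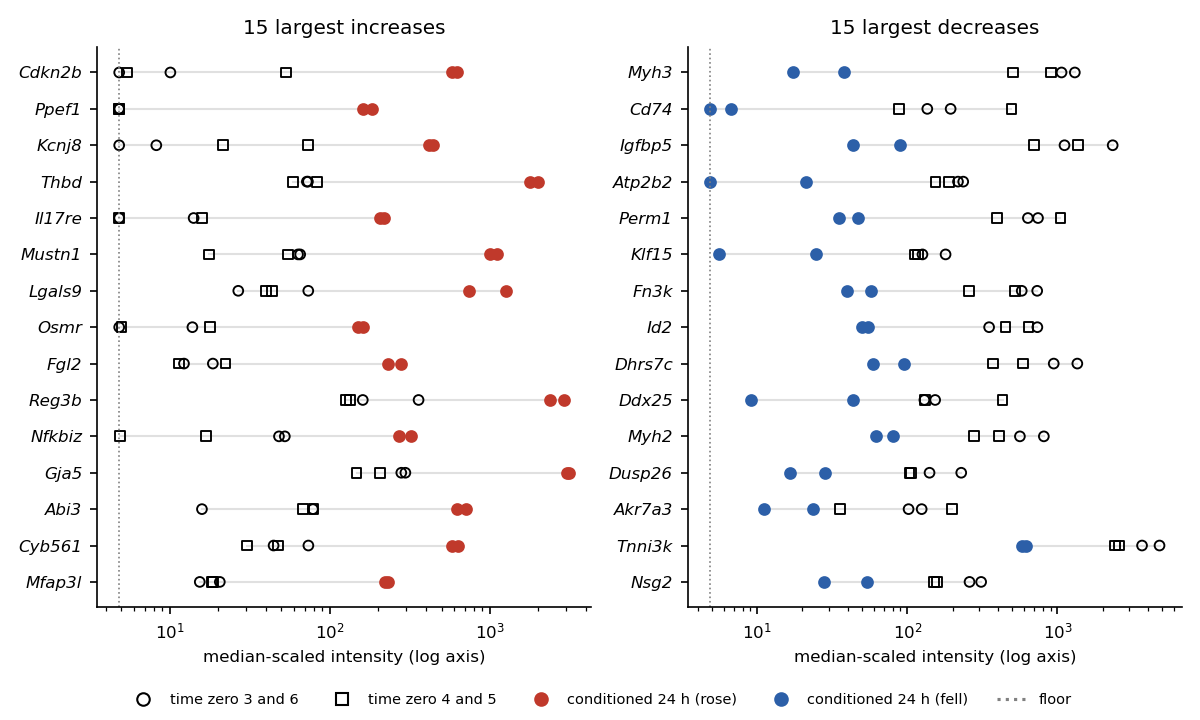
Each row is a gene and each symbol an array of the larger design, on a log axis of median-scaled intensity. Open circles are time zero replicates 3 and 6, open squares time zero replicates 4 and 5, which stood apart, filled symbols the 2 conditioned arrays, and the dotted line the floor at 4.84. In every row the filled symbols lie on 1 side of all open symbols.

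The 15 largest decreases included the myosin genes Myh3 and Myh2. Myh3, the embryonic myosin heavy chain, gave 38.0 and 17.2 on the conditioned arrays and 1065, 504, 908 and 1306 at time zero. All time zero arrays were high and the conditioned pair was far below them (-5.31 ± 0.39, adjusted p = 1.21e-06). Myh2, the fast IIA myosin heavy chain, gave 61.9 and 79.6 against 562, 278, 408 and 812 (-2.95 ± 0.39, adjusted p = 3.49e-04). Perm1, a muscle regulator of mitochondrial genes, gave 47.2 and 35.1 against 635, 1048, 396 and 742 (-4.21 ± 0.37, adjusted p = 8.29e-06). Tnni3k, a cardiac kinase that binds troponin I, gave 579 and 613 against 3661, 2419, 2566 and 4788 (-2.62 ± 0.34, adjusted p = 3.10e-04). None of these ranges overlapped. Dhrs7c, an enzyme of the sarcoplasmic reticulum, gave 95.2 and 58.7 against 1357, 593, 371 and 945 (-3.47 ± 0.49, adjusted p = 6.51e-04). Atp2b2, a calcium pump of the plasma membrane, gave 21.1 and 4.84 against 236, 191, 154 and 217, with conditioned replicate 3 at the floor (-4.47 ± 0.53, adjusted p = 1.19e-04). Klf15, a transcription factor of cardiac lipid and amino acid metabolism, gave 5.58 and 24.5 against 179.7, 113, 118 and 126 (-3.68 ± 0.53, adjusted p = 8.25e-04). The 2 conditioned arrays of Atp2b2 and Klf15 differed by more than 4-fold from each other and were still below every time zero array.

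Igfbp5, Cd74 and Id2 were also among the largest decreases. Igfbp5, which binds insulin-like growth factors, gave 89.4 and 43.2 against 2333, 1376, 701 and 1114 (-4.52 ± 0.87, adjusted p = 0.00829). Id2, an inhibitor of basic helix-loop-helix factors, gave 54.9 and 50.2 against 735, 642, 451 and 350.5 (-3.50 ± 0.54, adjusted p = 0.00165). Cd74, the invariant chain of MHC class II, gave 6.63 and 4.84 against 194, 494, 88.2 and 136, with conditioned replicate 3 at the floor (-5.20 ± 0.66, adjusted p = 2.05e-04). Here too every conditioned array was below every time zero array. Fn3k, a kinase that repairs glycated proteins, Ddx25, a helicase of male germ cells, Dusp26, a phosphatase of MAP kinases, Akr7a3, an aldehyde reductase, and Nsg2, a neuronal vesicle protein, made up the rest. All of them fell, with changes of -3.54 ± 0.39, -3.39 ± 0.62, -2.84 ± 0.47, -2.78 ± 0.57 and -2.61 ± 0.40 (adjusted p = 6.11e-05, 0.0064, 0.00287, 0.0153 and 0.0017). The second probe of Tnni3k gave -2.26. Akr7a3 (adjusted p 0.337 and 0.0536) did not pass without conditioned replicate 2 or without replicate 3. Dusp26 (adjusted p 0.123) and Nsg2 (0.109) did not pass without conditioned replicate 2. Igfbp5 (adjusted p 0.194) and Ddx25 (0.3) did not pass without conditioned replicate 3. Igfbp5 (adjusted p 0.129), Ddx25 (0.0853) and Akr7a3 (0.1) did not pass with no filter on dim probes. Igfbp5 (adjusted p 0.0698) did not pass without the intensity trend. Akr7a3 (adjusted p 0.0663) did not pass with a pseudocount of 0.5 of the median. The changes of Cd74, Atp2b2, Klf15, Ddx25, Dusp26 and Nsg2 were -2.34, -2.21, -1.65, -1.82, -1.53 and -1.68 with a pseudocount of 0.5 of the median. The change of Cd74 was -3.41 with a floor of 0.2 of the median.

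The promoters of 3 genes among the largest increases and 3 among the largest decreases are shown, to set the motif counts beside the letters they come from. They hold 250 bases before and 50 bases after the start site, come from RefSeq on GRCr8 and read 5′ to 3′ along the gene, with motif matches in capitals. Cdkn2b (chr5:109134806-109135105, minus strand), Kcnj8 (chr4:177246499-177246798, minus strand) and Mustn1 (chr16:6079105-6079404, plus strand) are the highest of the 15 that have an entry, and Myh3 (chr10:52268935-52269234, plus strand), Cd74 (chr18:56526956-56527255, plus strand) and Igfbp5 (chr9:81914138-81914437, minus strand) are the lowest.
Cdkn2b: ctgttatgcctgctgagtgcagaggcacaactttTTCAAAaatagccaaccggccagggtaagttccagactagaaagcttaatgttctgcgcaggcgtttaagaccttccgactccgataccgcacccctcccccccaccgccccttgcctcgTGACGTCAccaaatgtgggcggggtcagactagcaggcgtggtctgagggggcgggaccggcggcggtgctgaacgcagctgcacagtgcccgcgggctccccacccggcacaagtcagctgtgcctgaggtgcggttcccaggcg
Kcnj8: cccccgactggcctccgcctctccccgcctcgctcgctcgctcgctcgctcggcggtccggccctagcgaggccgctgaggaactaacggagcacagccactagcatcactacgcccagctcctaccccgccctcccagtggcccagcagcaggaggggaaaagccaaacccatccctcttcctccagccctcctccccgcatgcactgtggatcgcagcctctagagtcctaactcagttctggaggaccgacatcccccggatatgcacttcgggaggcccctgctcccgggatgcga
Mustn1: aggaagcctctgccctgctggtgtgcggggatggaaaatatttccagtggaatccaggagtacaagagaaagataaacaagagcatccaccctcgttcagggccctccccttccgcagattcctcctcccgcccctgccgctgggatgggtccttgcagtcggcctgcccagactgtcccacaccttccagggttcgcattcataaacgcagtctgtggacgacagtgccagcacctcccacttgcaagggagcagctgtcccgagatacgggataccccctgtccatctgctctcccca
Myh3: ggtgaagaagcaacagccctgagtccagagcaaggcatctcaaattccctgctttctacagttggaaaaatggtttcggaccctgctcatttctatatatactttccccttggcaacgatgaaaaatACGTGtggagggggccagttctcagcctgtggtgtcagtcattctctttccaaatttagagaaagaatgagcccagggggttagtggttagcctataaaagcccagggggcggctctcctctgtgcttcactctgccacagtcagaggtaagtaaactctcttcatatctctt
Cd74: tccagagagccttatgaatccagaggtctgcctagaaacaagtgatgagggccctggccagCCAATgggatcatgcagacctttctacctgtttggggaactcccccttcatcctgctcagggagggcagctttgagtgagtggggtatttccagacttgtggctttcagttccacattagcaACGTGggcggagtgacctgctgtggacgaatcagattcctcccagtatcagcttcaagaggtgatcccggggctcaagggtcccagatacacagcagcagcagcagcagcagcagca
Igfbp5: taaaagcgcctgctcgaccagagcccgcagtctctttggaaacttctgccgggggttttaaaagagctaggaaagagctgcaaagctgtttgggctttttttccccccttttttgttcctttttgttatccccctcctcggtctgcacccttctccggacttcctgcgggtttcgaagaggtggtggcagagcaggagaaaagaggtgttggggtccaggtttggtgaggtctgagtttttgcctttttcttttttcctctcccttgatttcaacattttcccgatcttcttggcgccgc

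The 9 motifs searched on both strands were TTCNNNGAA (STAT type), TGANTCA (AP-1), ACGTG (the core of the hypoxia response element), the box named for its letters CCAAT, the cell cycle homology region TTTGAA, the E-box CACGTG (which contains that hypoxia core), the kappa B motif, TGACGTCA (cAMP response element) and TGACGCAA. The Cdkn2b promoter held TGACGTCA, which starts at -96, and TTTGAA on the opposite strand, at -216. The Myh3 promoter held ACGTG at -123 and that of Cd74 held it at -67, with CCAAT at -189, and those of Kcnj8, Mustn1 and Igfbp5 held none of the 9. Among the 8292 promoters of tested genes TGACGTCA was in 3.05%, TTTGAA in 11.3% and ACGTG in 25.3%. Among the promoters of 258 genes that rose the shares were 2.71%, 12.0% and 17.1%, and among those of 41 that fell 0%, 9.76% and 29.3%. The STAT-type motif was in 6.71% of all promoters, 4.65% of those that rose and 4.88% of those that fell, and the AP-1 motif in 4.85%, 6.59% and 2.44%. These are counts of letters in a window, with no test.

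**Figure D3:**
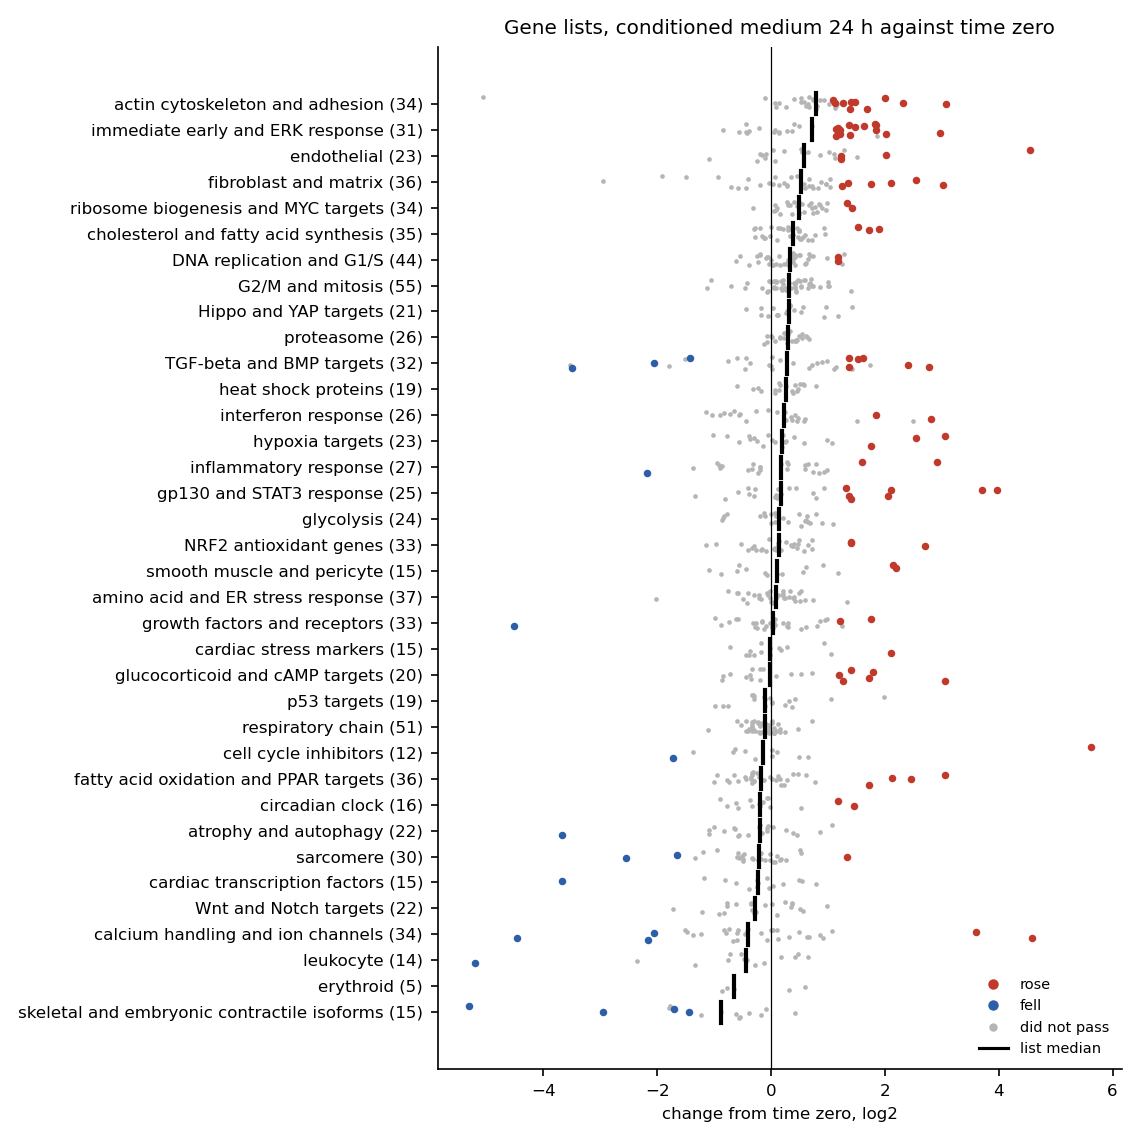
Each row is a gene list, with the number of tested genes in brackets, ordered by its median. Points are genes placed by their log2 change from time zero less the median change over all probes, red where they rose, blue where they fell and grey where they did not pass, and the black bar is the list median. The actin cytoskeleton list has the highest median (0.80) and the list of skeletal and embryonic contractile isoforms the lowest (-0.87).

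Contractile genes were described first. Among 36 lists with 908 tested genes, 93 of the 383 called genes had a place, and the median change of all genes was 0.07. The lists and their members were chosen with earlier results of these data known, so their counts are no separate support. Of all 9953 genes 3.24% rose and 0.613% fell, and each list count of the main fit below is to be read beside these shares. List counts from another run are given with the counts of that run over all genes. Of 15 tested skeletal and embryonic contractile isoforms 0 rose and 4 fell, with a list median of -0.87. Beside Myh3 and Myh2 these were Ckm, the muscle creatine kinase, and Mb, myoglobin. Ckm gave 751 and 803 against 3211, 1889, 1927 and 2096 at time zero, and Mb gave 2565 and 2766 against 9497, 4518, 5569 and 6984. The arrays of both were separate (-1.70 ± 0.30, adjusted p = 0.0078, and -1.44 ± 0.32, adjusted p = 0.0401). The second probe of Ckm gave -1.72. Among 30 sarcomere genes 1 rose (3.33%) and 2 fell (6.67%), and the median was -0.21. Myom2, an M band protein that cross-links myosin, gave 263 and 324 against 2352, 1101, 1118 and 1754 (-2.54 ± 0.36, adjusted p = 7.36e-04). Tcap, the titin cap of the Z disc, gave 1467 and 1542 against 5312, 3059, 2972 and 6236 (-1.65 ± 0.35, adjusted p = 0.0279). Nebl, nebulette of the Z disc, gave 476 and 457 against 183, 125, 112 and 279.8 (1.33 ± 0.37, adjusted p = 0.0307). Both conditioned arrays of Nebl were above and those of Myom2 and Tcap below all time zero arrays. Ldb3, another Z disc protein, had changes of -1.20 ± 0.33 without passing (adjusted p = 0.109). Leaving out the 3 arrays apart, 9 genes of the sarcomere list fell and 1 rose, where 512 of all genes fell and 607 rose. Ckm (adjusted p 0.18 and 0.145), Mb (0.422 and 0.355), Tcap (0.324 and 0.291) and Nebl (0.324 and 0.301) did not pass without conditioned replicate 2 or without replicate 3. Mb (adjusted p 0.0883), Tcap (0.091) and Nebl (0.104) did not pass with no filter on dim probes. Mb (adjusted p 0.0907), Tcap (0.0853) and Nebl (0.0888) did not pass without the intensity trend. Mb (adjusted p 0.121) and Tcap (0.0595) did not pass when only the 6 arrays of these groups were fitted. Nebl (adjusted p 0.0702) did not pass when tested against the median change. Mb (adjusted p 0.0734) and Tcap (0.0633) did not pass without time zero replicate 3. Mb (adjusted p 0.0599) and Nebl (0.0824) did not pass without time zero replicate 5.

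Calcium handling genes and ion channels went in both directions. Of 34 tested, 2 rose and 3 fell, with a median of -0.41. Kcnj8 and Gja5 rose and Atp2b2 fell, as given above. Asph, whose locus encodes junctin and an aspartyl hydroxylase, gave 89.6 and 75.9 against 543, 248, 236 and 356 at time zero (-2.17 ± 0.36, adjusted p = 0.00411). Hrc, the histidine-rich calcium-binding protein of the sarcoplasmic reticulum, gave 787 and 663 against 3721, 3101, 1472 and 2850.3 (-2.05 ± 0.36, adjusted p = 0.00603). The conditioned arrays of both were below all time zero arrays, and the second probe of Hrc gave -2.07. Without the 3 arrays that stood apart 8 of the list fell and 3 rose, where 512 of all genes fell and 607 rose. Cardiac stress markers showed 1 increase among 15, that of Timp1, a metalloproteinase inhibitor, at 11931 and 12282 against 3492, 1536, 1855 and 3765 (2.11 ± 0.37, adjusted p = 0.00141). Spp1, Nppb and Xirp2 had changes of 1.04, 0.28 and -0.72 without passing (adjusted p = 0.13, 0.574 and 0.583). Of 15 cardiac transcription factors Klf15 fell, and Irx3, Srf and Irx4 did not pass, at 0.79, 0.48 and 0.54 (adjusted p = 0.161, 0.333 and 0.402). Asph (adjusted p 0.0592 and 0.124) and Hrc (0.0819 and 0.173) did not pass without conditioned replicate 2 or without replicate 3.

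Proliferation genes, which the title of the series is about, mostly did not pass at 24 h. The same holds for genes in general, of which 3.85% passed. None of 55 tested genes of G2, M phase and mitosis passed in either direction, while 46 were above the median change of all probes and the list median was 0.32. Mki67, a marker of cycling cells, gave 611 and 553 against 658, 279, 527 and 562 at time zero, and Ccnb1, cyclin B1, gave 725 and 844 against 719, 338, 621 and 745. Their conditioned and time zero arrays overlapped (0.09 ± 0.33 and 0.25 ± 0.34, adjusted p = 0.774 and 0.615). Cdk1, the kinase of mitotic entry, gave 2931 and 3181 against 2523, 1314, 1117 and 3230.5 (0.53 ± 0.42, adjusted p = 0.453). The members with the smallest p were Mad2l1 (1.00, adjusted p 0.0501), Ncaph (1.40, 0.0516), Cks2 (1.00, 0.0678) and Foxm1 (0.86, 0.0709). Ncaph differed between the conditioned arrays, at 294 and 1156. Without the 3 arrays that stood apart 2 genes of the list rose and 0 fell, where 607 of all genes rose and 512 fell.

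Of 44 genes of G1/S and DNA replication 2 rose (4.55%, against 3.24% of all genes) and 0 fell, with a median of 0.33. Ccnd1, cyclin D1, gave 3984 and 4867 against 2136, 1299, 1185 and 2607 (1.18 ± 0.36, adjusted p = 0.0449). Uhrf1, which recruits maintenance DNA methylation, gave 259 and 276 against 161, 103, 71.3 and 98.8 (1.18 ± 0.33, adjusted p = 0.0283). In both the conditioned arrays were above all time zero arrays. Cdk6 and Rrm2 had changes of 1.24 and 1.28 without passing (adjusted p = 0.0564 and 0.0887). The second probe of Uhrf1 gave -0.02. Among 12 cell cycle inhibitors Cdkn2b rose and Cdkn1c fell. Cdkn1c, the imprinted inhibitor p57, gave 101 and 79.5 against 351, 259, 278 and 184 and was lower on both conditioned arrays (-1.73 ± 0.34, adjusted p = 0.0161). Ccng2 and Meis1 had changes of -1.37 and 0.66 without passing (adjusted p = 0.0516 and 0.199). Ccnd1 (adjusted p 0.278 and 0.522), Uhrf1 (0.279 and 0.366) and Cdkn1c (0.136 and 0.339) did not pass without conditioned replicate 2 or without replicate 3. Ccnd1 (adjusted p 0.13), Uhrf1 (0.0684) and Cdkn1c (0.0506) did not pass with no filter on dim probes. Ccnd1 (adjusted p 0.115) and Uhrf1 (0.0653) did not pass without the intensity trend. Ccnd1 (adjusted p 0.0931) and Uhrf1 (0.0949) did not pass when only the 6 arrays of these groups were fitted. Ccnd1 (adjusted p 0.0563) did not pass with a pseudocount of 0.5 of the median. Uhrf1 (adjusted p 0.274) did not pass when the probes of a gene were averaged. Ccnd1 (adjusted p 0.107) and Uhrf1 (0.0715) did not pass when tested against the median change. Ccnd1 (adjusted p 0.0603) did not pass without time zero replicate 4. Ccnd1 (adjusted p 0.12) and Uhrf1 (0.0663) did not pass without time zero replicate 5.

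Immediate early genes and targets of ERK signalling gave the largest count of increases of all lists. Of 31 tested, 14 rose and 0 fell, against 3.24% of all genes that rose, and the list median was 0.72. Egr1, an immediate early zinc finger factor, gave 7256 and 9994 against 2779, 1476, 1144 and 2524 at time zero (2.02 ± 0.37, adjusted p = 0.00196). Ier2, another immediate early gene, gave 538 and 812 against 214, 104, 139 and 231 (1.83 ± 0.37, adjusted p = 0.00454). Dusp5, a nuclear ERK phosphatase, gave 1768 and 1751 against 590.4, 305, 284 and 674 (1.85 ± 0.38, adjusted p = 0.0047). All conditioned arrays were above all time zero arrays in these 3 genes. Phlda1, induced by growth factors, gave 3282 and 2917 against 1323, 647, 653 and 1093 (1.63 ± 0.34, adjusted p = 0.00493). The others that rose, named after their values were seen, were the transcription factor genes Fos, Fosl1, Junb, Etv4 and Klf6, the ERK inhibitor genes Spred1 and Spry4, and Ier3, Areg and Ccnd1. Their changes ran from 1.15 for Fos to 2.96 for Spred1. The second probes of Egr1 and Dusp5 gave 1.16 and 1.14. Tested against the median change, 8 of the list rose, where 204 of all genes rose. Dusp5 (adjusted p 0.101 and 0.0974) and Phlda1 (0.136 and 0.0886) did not pass without conditioned replicate 2 or without replicate 3. Egr1 (adjusted p 0.0968) and Ier2 (0.195) did not pass without conditioned replicate 3. Egr1 (adjusted p 0.131) did not pass when the probes of a gene were averaged.

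Genes of TGF-beta and BMP signalling split by direction. Of 32 tested, 6 rose and 3 fell. Ltbp1, which stores latent TGF-beta in the matrix, gave 311 and 278 against 63.9, 13.2, 47.1 and 52.1 at time zero (2.77 ± 0.49, adjusted p = 0.0018). Tgif1, a corepressor of SMAD proteins, gave 489 and 482 against 109, 74.8, 67.2 and 78.8 (2.40 ± 0.34, adjusted p = 2.11e-04). Inhba, Fst, Tgfb3 and Pmepa1, named after their values were seen, rose by 1.62, 1.54, 1.37 and 1.37. The genes that fell included the BMP targets Id1 and Id2. Id1 gave 582 and 582 against 3176, 1620.1, 1517 and 2673, with the conditioned pair below all time zero arrays (-2.06 ± 0.34, adjusted p = 0.00407). Smad7, the inhibitory SMAD, also fell, with a change of -1.43, and was named after its values were seen. The list median was 0.27. Of 33 growth factors and receptors 2 rose (6.06%) and 1 fell (3.03%), against 3.24% and 0.613% of all genes, with a median of 0.03. Igfbp3, another binding protein of insulin-like growth factors, gave 167 and 189 against 58.4, 32.8, 39.5 and 61.1, while Igfbp5 fell (1.76 ± 0.37, adjusted p = 0.00606 for Igfbp3). Areg, the EGF receptor ligand amphiregulin, gave 471 and 554 against 217, 133, 241 and 209 (1.21 ± 0.32, adjusted p = 0.023). Pdgfa had changes of 0.80 without passing (adjusted p = 0.121). The second probe of Igfbp3 gave 0.04. None of 22 Wnt and Notch targets passed, and the smallest p belonged to Fzd2 (0.98, adjusted p 0.127), Nkd1 (0.51, 0.283), Sfrp2 (-1.72, 0.316) and Notch1 (-0.77, 0.402). Id1 (adjusted p 0.0964 and 0.0968), Igfbp3 (0.102 and 0.171) and Areg (0.201 and 0.386) did not pass without conditioned replicate 2 or without replicate 3. Areg (adjusted p 0.0579) did not pass with no filter on dim probes. Areg (adjusted p 0.064) did not pass without the intensity trend. Areg (adjusted p 0.0539) did not pass when only the 6 arrays of these groups were fitted. Igfbp3 (adjusted p 0.207) did not pass when the probes of a gene were averaged. Areg (adjusted p 0.0595) did not pass when tested against the median change. The changes of Ltbp1 and Igfbp3 were 1.80 and 1.12 with a pseudocount of 0.5 of the median.

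Genes of gp130 and STAT3 signalling, a list of receptors, ligands and kinases beside targets, rose in part. Of 25 tested, 7 rose and 0 fell, and the median of the list was 0.17, against 0.07 for all genes. Beside Osmr, Reg3b and Timp1 the group included Bcl3, a nuclear partner of NF-kappa B, at 802 and 948 against 236, 141, 125 and 287 (2.05 ± 0.37, adjusted p = 0.00163). Cebpd, an acute phase transcription factor, gave 1039 and 1164 against 482, 281, 286 and 453 (1.41 ± 0.33, adjusted p = 0.00999). The conditioned arrays of both were above all time zero arrays. Junb and the kinase gene Jak2 rose by 1.37 and 1.31, and were named after their values were seen. In the whole list 18 genes were above the median change of all probes and 7 below it. Members that did not pass included Pim1 (0.17), Socs3 (0.16), Lcn2 (0.11), Cish (-0.40), Serpina3n (-0.81) and Hp (-1.34). Of 27 inflammatory genes 2 rose (7.41%) and 1 fell (3.70%), against 3.24% and 0.613% of all genes. Il33, an alarmin of the interleukin-1 family, gave 231 and 224 against 18.9, 126, 43.3 and 4.84 (2.92 ± 0.78, adjusted p = 0.0352). Its time zero replicate 6 was at the floor, and all time zero arrays were below the conditioned pair. Tlr2, a sensor of bacterial lipoproteins, gave 241 and 224 against 96.3, 57.4, 43.9 and 84.6 (1.61 ± 0.36, adjusted p = 0.00925). Ccl20, a chemokine of lymphocytes, gave 275 and 211 against 948, 655, 1102 and 1240.2 and fell (-2.18 ± 0.34, adjusted p = 0.00217). The second probes of Il33 and Ccl20 gave 0.35 and -2.31. Ccl2 had changes of 0.74 without passing (adjusted p = 0.104). Of 26 interferon-induced genes 2 rose (7.69%) and 0 fell. Ifitm3, which blocks viral entry, gave 2489 and 2703 against 732, 393, 593 and 984 (1.84 ± 0.36, adjusted p = 0.00285). Oasl, an antiviral sensor protein, gave 72.5 and 57.6 against 4.84, 7.43, 4.84 and 24.8, with 2 time zero arrays at the floor (2.81 ± 0.74, adjusted p = 0.034). Ifit3 and Tap1 did not pass, at 2.49 and 0.57 (adjusted p = 0.167 and 0.287). Cebpd (adjusted p 0.136 and 0.231), Il33 (0.282 and 0.289), Tlr2 (0.191 and 0.16), Ifitm3 (0.0599 and 0.0886) and Oasl (0.415 and 0.307) did not pass without conditioned replicate 2 or without replicate 3. Bcl3 (adjusted p 0.0692) and Ccl20 (0.106) did not pass without conditioned replicate 3. Il33 (adjusted p 0.228) and Oasl (0.0801) did not pass with no filter on dim probes. Il33 (adjusted p 0.146) did not pass without the intensity trend. Il33 (adjusted p 0.0509) did not pass after quantile normalization. Il33 (adjusted p 0.104) did not pass after scaling to the 75th percentile. Oasl (adjusted p 0.0564) did not pass with a floor of 0.2 of the median. Il33 (adjusted p 0.0566) and Oasl (0.0552) did not pass when tested against the median change. Il33 (adjusted p 0.0905) and Oasl (0.0571) did not pass without time zero replicate 3. Il33 (adjusted p 0.0575) and Oasl (0.0592) did not pass without time zero replicate 5. The change of Il33 was 1.64 when the probes of a gene were averaged. The changes of Il33 and Oasl were 1.58 and 0.87 with a pseudocount of 0.5 of the median. The change of Il33 was 4.59 without the 3 arrays that stood apart.

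Genes of the actin cytoskeleton and of cell adhesion had the highest list median, 0.80. Of 34 tested, 10 rose and 0 fell, and 32 were above the median change of all probes. S100a10, the annexin A2 partner at the membrane, gave 372 and 287 against 38.2, 50.3, 23.5 and 30.01 at time zero (3.08 ± 0.39, adjusted p = 8.46e-05). Plaur, the urokinase receptor, gave 1071 and 893 against 256, 119.7, 141 and 211 (2.31 ± 0.34, adjusted p = 3.10e-04). Lgals3, galectin-3, gave 3954 and 3970.1 against 1044, 658, 884 and 939 (2.01 ± 0.29, adjusted p = 2.38e-04). Cd44, the hyaluronan receptor, gave 1424 and 1532 against 537, 432, 408 and 659 (1.38 ± 0.30, adjusted p = 0.0064). All were higher on both conditioned arrays than on any time zero array. The others that rose, named after their values were seen, were Itga3, Anxa1, Msn, Myh9, Cav1 and Cfl1, by 1.09 to 1.68. After quantile normalization 19 of the list rose, where 743 of all genes rose. Cd44 (adjusted p 0.123 and 0.176) did not pass without conditioned replicate 2 or without replicate 3. The change of S100a10 was 2.05 with a pseudocount of 0.5 of the median.

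Markers of other cell types that a ventricular preparation can hold rose in part. Of 36 fibroblast and matrix genes 6 rose and 0 fell, with a median of 0.52. Timp3, a matrix-bound metalloproteinase inhibitor, gave 905 and 953 against 92.1, 48.9, 113 and 202 at time zero (3.02 ± 0.43, adjusted p = 2.53e-04). Fn1, fibronectin, gave 7089 and 7811 against 2229, 1348, 1693 and 2756 (1.76 ± 0.32, adjusted p = 0.00163), and Loxl2, a collagen cross-linking oxidase, gave 228 and 198 against 59.5, 13.4, 40.9 and 32.5 (2.54 ± 0.46, adjusted p = 0.00191). These arrays did not overlap. Timp1, Fbln2 and Lox also rose. Of the fibroblast and matrix list 26 genes were above the median change of all probes and 10 below it. Those below, none of which passed, included Col11a1 (-2.95), Mfap4 (-1.91), Eln (-1.50) and Thy1 (-0.20). Without the 3 arrays that stood apart 9 of the list rose and 2 fell, and after quantile normalization 11 and 2. Over all genes these runs gave 607 and 512, and 743 and 384. Col1a1, the main fibrillar collagen chain, gave 2238 and 3838 against 2141, 1366, 1874 and 2279 and did not pass (0.46 ± 0.34, adjusted p = 0.387). Summed over the list, intensities were 110796 and 112157 on the conditioned arrays, from 53778 to 94545 at time zero and 113220.0 and 119301 in unconditioned medium. Adamts1 and Fbln1 were at the floor on all arrays. These sums and those of the lists below cover all listed genes on the array, also those too dim to be tested. They hold 45 fibroblast and matrix, 24 endothelial, 17 smooth muscle and pericyte, 28 leukocyte and 8 erythroid genes. Of 23 endothelial genes 4 rose and 0 fell, with a median of 0.57. Beside Thbd they were Tek, the angiopoietin receptor, Nos3, the endothelial nitric oxide synthase, and Esam, an adhesion molecule. In the whole list 17 genes were above the median change of all probes and 6 below it. Those below, none of which passed, included Kdr (-1.09), Sele (-0.24), Plvap (-0.20) and Flt1 (-0.11). Tek gave 314 and 362 against 93.7, 45.8, 73.1 and 93.7 (2.01 ± 0.35, adjusted p = 0.00118). Nos3 gave 495 and 646 against 268, 142, 182 and 291, and Esam 250.3 and 259 against 112, 85.6, 85.9 and 104 (1.24 ± 0.34, adjusted p = 0.0273, and 1.22 ± 0.32, adjusted p = 0.0212). The conditioned arrays were above all time zero arrays in each. The summed endothelial intensities were 7322 and 7800.2 on the conditioned arrays, from 3421 to 4417 at time zero and 5809 and 6466 in unconditioned medium. Thbd, which had the largest change of the list (4.55), is part of these sums, and they were not computed without it. The part of endothelial or fibroblast RNA in the results was not tested.

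Of 15 smooth muscle and pericyte genes 2 rose and 0 fell, with 8 above the median change of all probes and 7 below it. Those below, none of which passed, included Cnn1 (-0.88), Myh11 (-0.60), Smtn (-0.57) and Lmod1 (-0.44). Without the 3 arrays that stood apart 3 of the list rose and 2 fell, where 607 of all genes rose and 512 fell. After quantile normalization 3 rose and 2 fell as well, where 743 and 384 of all genes did. Cspg4, the NG2 proteoglycan of pericytes, gave 4053 and 4593 against 1198, 443, 704 and 1294 (2.19 ± 0.41, adjusted p = 0.00254), and Cnn2, a calponin of the cytoskeleton, gave 1731 and 1324 against 433, 297, 248 and 268 (2.13 ± 0.41, adjusted p = 0.00302). Abcc9, the sulfonylurea receptor that pairs with the Kcnj8 channel, and Itga8 had changes of 0.91 and -1.09 without passing (adjusted p = 0.118 and 0.143). The list's summed intensities were 54968 and 56528 on the conditioned arrays, from 27124 to 50980.4 at time zero and 72966 and 73625 in unconditioned medium. Of 14 leukocyte genes Cd74 fell, and Lyz2 was at the floor on all arrays. Cd14, C1qc and Laptm5 had changes of 0.65, -2.35 and -1.34 without passing (adjusted p = 0.175, 0.404 and 0.419). Summed leukocyte intensities were 2439 and 2579 on the conditioned arrays, from 2607 to 3347 at time zero and 2549.7 and 2739.7 in unconditioned medium. None of 5 erythroid genes passed, and the smallest p belonged to Gypc (0.59, adjusted p 0.311), Slc4a1 (-0.87, 0.642), Klf1 (0.31, 0.643) and Hemgn (-0.64, 0.77). The erythroid sums were 2720.5 and 2839.8 on the conditioned arrays, from 1495 to 2414 at time zero and 2189.5 and 2359 in unconditioned medium. The medians of the leukocyte and erythroid lists were -0.45 and -0.64, and turned to 0.01 and 0.17 without the 3 arrays that stood apart. For comparison, the 30 sarcomere genes summed to 330485 and 362286 on the conditioned arrays, from 257830.0 to 497462 at time zero and 451713 and 475936 in unconditioned medium. The conditioned sums lay inside the time zero range for sarcomere genes and above it for fibroblast, endothelial, smooth muscle and erythroid genes, and below it for leukocyte genes. The part of other cell types in these results was not tested. Nos3 (adjusted p 0.171 and 0.456) and Esam (0.255 and 0.3) did not pass without conditioned replicate 2 or without replicate 3. Loxl2 (adjusted p 0.0592) and Cnn2 (0.109) did not pass without conditioned replicate 2. Fn1 (adjusted p 0.0705), Tek (0.0529) and Cspg4 (0.0806) did not pass without conditioned replicate 3. Nos3 (adjusted p 0.0796) and Esam (0.0528) did not pass with no filter on dim probes. Nos3 (adjusted p 0.0805) and Esam (0.0515) did not pass without the intensity trend. Nos3 (adjusted p 0.0569) and Esam (0.0632) did not pass when only the 6 arrays of these groups were fitted. Nos3 (adjusted p 0.0672) and Esam (0.0552) did not pass when tested against the median change. Nos3 (adjusted p 0.0732) and Esam (0.0501) did not pass without time zero replicate 5. The change of Loxl2 was 1.52 with a pseudocount of 0.5 of the median.

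Of 36 genes of fatty acid oxidation and PPAR signalling 4 rose and 0 fell, and the list median was -0.17. Angptl4, a secreted inhibitor of lipoprotein lipase, gave 5070.2 and 5407 against 879, 364, 341 and 863 at time zero (3.06 ± 0.41, adjusted p = 1.36e-04). Acot1, a cytosolic acyl-CoA thioesterase, gave 1498 and 1556 against 359, 236, 151 and 284 (2.46 ± 0.33, adjusted p = 1.49e-04). Pparg, the lipid-sensing nuclear receptor of fat cells, gave 578 and 584 against 169, 70.5, 96.0 and 166 (2.12 ± 0.40, adjusted p = 0.00245). In these the conditioned arrays were above all time zero arrays. Plin2, a coat protein of lipid droplets, gave 7091 and 6513 against 2667, 1019, 1497 and 2678 (1.72 ± 0.38, adjusted p = 0.00811). None of the 4 is an enzyme of beta-oxidation. Without the 3 arrays that stood apart 7 genes of the list fell and 4 rose, where 512 of all genes fell and 607 rose. Of 35 genes of cholesterol and fatty acid synthesis 3 rose and 0 fell. Abcg1 and Abca1, which export cholesterol, gave 3694 and 3796 against 1229, 704, 718 and 982 and 118 and 136 against 63.5, 33.5, 27.1 and 39.9. Scd2, a fatty acid desaturase, gave 1984 and 2131 against 681, 399, 469 and 731. They rose by 1.90 ± 0.31, 1.52 ± 0.43 and 1.71 ± 0.33 (adjusted p = 5.81e-04, 0.0348 and 0.00225), while Scap did not pass, at 0.95 (adjusted p = 0.118). Pparg (adjusted p 0.0575 and 0.0664), Plin2 (0.153 and 0.123), Scd2 (0.0577 and 0.0831) and Abca1 (0.303 and 0.448) did not pass without conditioned replicate 2 or without replicate 3. Plin2 (adjusted p 0.0643) and Abca1 (0.0836) did not pass with no filter on dim probes. Abca1 (adjusted p 0.146) did not pass when only the 6 arrays of these groups were fitted. Abca1 (adjusted p 0.0737) did not pass when tested against the median change. Abca1 (adjusted p 0.0682) did not pass without time zero replicate 5. The change of Abca1 was 0.86 with a pseudocount of 0.5 of the median.

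Of 23 hypoxia targets 3 rose and 0 fell, which were Angptl4, Loxl2 and Ndrg1. Ndrg1, a stress-induced differentiation gene, gave 600.3 and 580.1 against 229, 109, 119 and 188 at time zero, with no overlap (1.76 ± 0.36, adjusted p = 0.0047). Hilpda, a lipid droplet protein, had changes of 1.07 without passing (adjusted p = 0.0628). None of 24 glycolytic genes and none of 51 genes of the respiratory chain passed. The smallest p among the former belonged to Pfkp (1.08, adjusted p 0.0718), Eno1 (0.89, 0.122), Hk2 (0.79, 0.144) and Slc16a1 (0.66, 0.191). In the respiratory chain they were Ndufv3 (0.72, adjusted p 0.182), Atp5pd (0.47, 0.539), Ndufv1 (-0.53, 0.661) and Atp5mc3 (0.24, 0.662). The list medians were 0.15 and -0.11. Ndrg1 (adjusted p 0.112 and 0.0968) did not pass without conditioned replicate 2 or without replicate 3.

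Of 33 antioxidant genes under NRF2 3 rose (9.09%, against 3.24% of all genes) and 0 fell. Aldh3a1, an aldehyde dehydrogenase, gave 930.0 and 951 against 126, 96.8, 195 and 111 at time zero (2.70 ± 0.34, adjusted p = 7.15e-05). Akr1b8, an aldose reductase relative, gave 819.5 and 852 against 343, 179.9, 278 and 343, and Gsta2, a glutathione transferase, 1229 and 1309 against 569.8, 271, 378 and 544. No arrays overlapped (1.41 ± 0.31, adjusted p = 0.00716, and 1.41 ± 0.36, adjusted p = 0.0205). Ephx1 had changes of -1.15 without passing (adjusted p = 0.115). Of 20 glucocorticoid and cAMP targets 6 rose and 0 fell, with a median of -0.03, which was 0.03 after quantile normalization. Errfi1, a feedback inhibitor of the EGF receptor, gave 2456 and 2752 against 796, 566, 461 and 928 (1.79 ± 0.33, adjusted p = 0.00184). Hsd11b1, which regenerates active glucocorticoid, gave 297 and 285 against 66.6, 52.6, 143 and 73.7 (1.72 ± 0.38, adjusted p = 0.00763). Beside Angptl4 and Cebpd, Fkbp5 and Glul rose by 1.26 and 1.20, named after their values were seen. Of 16 clock genes 2 rose, the repressors Bhlhe41 and Bhlhe40. Bhlhe41 gave 680.1 and 683 against 191, 196, 212 and 296, and Bhlhe40 gave 2248 and 1945 against 867, 531, 899 and 1080.0 (1.45 ± 0.31, adjusted p = 0.00607, and 1.17 ± 0.32, adjusted p = 0.0273). Dbp and Bmal1 had changes of -0.89 and 0.52 without passing (adjusted p = 0.317 and 0.321). Akr1b8 (adjusted p 0.135 and 0.171), Gsta2 (0.221 and 0.291), Hsd11b1 (0.141 and 0.131), Bhlhe41 (0.132 and 0.142) and Bhlhe40 (0.387 and 0.25) did not pass without conditioned replicate 2 or without replicate 3. Errfi1 (adjusted p 0.0772) did not pass without conditioned replicate 3. Gsta2 (adjusted p 0.0838), Hsd11b1 (0.056) and Bhlhe40 (0.0642) did not pass with no filter on dim probes. Gsta2 (adjusted p 0.0763) and Bhlhe40 (0.0746) did not pass without the intensity trend. Bhlhe40 (adjusted p 0.0748) did not pass when only the 6 arrays of these groups were fitted. Bhlhe40 (adjusted p 0.0699) did not pass when tested against the median change. Gsta2 (adjusted p 0.0588) did not pass without time zero replicate 5.

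Of 34 genes of ribosome biogenesis and MYC targets 2 rose and 0 fell, and 33 were above the median change of all probes, and the median of the list was 0.50. Mycn, a MYC family factor of growing tissues, gave 259 and 308 against 117, 71.6, 78.5 and 116 at time zero (1.42 ± 0.35, adjusted p = 0.0141). Npm1, the nucleolar protein nucleophosmin, gave 12757 and 15546 against 6617, 3113, 3546 and 8127 (1.33 ± 0.37, adjusted p = 0.0313). Both conditioned arrays were above the 4 others. Fbl and Nme1 had changes of 0.89 and 1.39 without passing (adjusted p = 0.0643 and 0.0678). After quantile normalization 12 of the list rose, where 743 of all genes rose. No gene passed in the lists of the proteasome (26 tested), heat shock proteins (19), amino acid and ER stress (37), p53 targets (19) and Hippo and YAP targets (21), whose medians ran from -0.10 to 0.31. That of amino acid and ER stress turned from 0.08 to -0.03 without the 3 arrays that stood apart and to -0.08 after quantile normalization. The members with the smallest p in these lists were Psmc5 (0.61, adjusted p 0.276), Psmd14 (0.67, 0.283), Psmd2 (0.64, 0.303) and Psmd13 (0.49, 0.378) for the proteasome. For heat shock proteins they were Hsf1 (0.78, adjusted p 0.182), Hspb1 (0.57, 0.283), Hspd1 (0.46, 0.293) and Dnajb1 (0.51, 0.315). For amino acid and ER stress they were Slc7a3 (-2.02, adjusted p 0.1), Stc2 (0.74, 0.172), Dnajc3 (0.60, 0.252) and Calr (0.49, 0.301), and for p53 targets Fas (1.06, adjusted p 0.095), Sesn1 (-0.98, 0.241), Perp (0.36, 0.395) and Sesn2 (-0.76, 0.442). For Hippo and YAP targets they were Sav1 (0.94, adjusted p 0.116), Ccn1 (0.97, 0.119), Axl (1.42, 0.262) and Mob1a (0.52, 0.384). Among 22 genes of atrophy and autophagy Klf15 fell, and Ctsb, Gabarapl1 and Ctsl had changes of 0.86, -1.09 and 1.06 without passing (adjusted p = 0.106, 0.124 and 0.172). Without the 3 arrays that stood apart 7 genes of that list fell and 1 rose, where 512 of all genes fell and 607 rose. Mycn (adjusted p 0.146 and 0.3) and Npm1 (0.216 and 0.423) did not pass without conditioned replicate 2 or without replicate 3. Mycn (adjusted p 0.0519) and Npm1 (0.133) did not pass with no filter on dim probes. Npm1 (adjusted p 0.0909) did not pass without the intensity trend. Npm1 (adjusted p 0.0684) did not pass when only the 6 arrays of these groups were fitted. Npm1 (adjusted p 0.0714) did not pass when tested against the median change. Npm1 (adjusted p 0.087) did not pass without time zero replicate 5.

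Some of these changes differed from those in unconditioned medium, which the cells of the other dishes received for the same 24 h. The direct test of conditioned against unconditioned medium at 24 h called 31 of 9953 genes (0.311%), of which 15 were higher (0.151%) and 16 lower (0.161%). Over all probes 58 passed (0.245%), 30 higher and 28 lower. Without conditioned replicate 2 there were 19, of which 4 were higher and 15 lower, and without conditioned replicate 3 there were 25, of which 4 were higher and 21 lower. Without unconditioned replicate 3 there were 34, of which 22 were higher and 12 lower. Passing both this test and that against time zero were 11 genes higher and 11 lower. The tests share the conditioned arrays, so this overlap is no separate support. Kcnj8 gave 4.84 and 7.13 in unconditioned medium, against 442 and 419.6 with conditioning, a difference of 6.19 ± 1.09 (adjusted p = 0.0168). Reg3b gave 130.1 and 98.9 against 2377 and 2915, and Ppef1 11.5 and 4.84 against 161 and 185. They differed by 4.53 ± 0.47 and 4.52 ± 0.85 (adjusted p = 1.78e-04 and 0.0257). The unconditioned values of Kcnj8 and Reg3b lay near or below the lower end of the time zero range. Thbd took an intermediate level, 269 and 310.4, above all time zero arrays and below the conditioned pair (2.70 ± 0.35, adjusted p = 0.00115). Cyb561, Ppp2r2b, a regulatory subunit of protein phosphatase 2A, Dclk1, a microtubule-binding kinase, and Bcl3 differed by 2.67, 2.61, 2.43 and 2.21 (adjusted p = 0.0101, 0.049, 0.00334 and 0.0278). From time zero Ppp2r2b went to 1408 and 1533 from 368, 92.4, 113 and 287, and Dclk1 to 1836 and 2032 from 219, 132, 149.9 and 222 (2.83 ± 0.46, adjusted p = 8.37e-04, and 3.27 ± 0.30, adjusted p = 5.08e-06). The other probes of Dclk1 gave 2.32, -0.13 and -0.54. Lgals3 and Bhlhe41 also differed, by 1.89 and 1.83 (adjusted p = 0.0178 and 0.0388).

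Myh3, Myh2 and Prkag2 were among the genes that were lower with conditioning. In the lists, 3 of 15 skeletal and embryonic isoforms and 1 of 30 sarcomere genes were lower here, against 0.161% of all genes. Those lists were chosen with earlier results of these data known. Myh3 gave 641 and 915 in unconditioned medium and 38.0 and 17.2 in conditioned medium, and Myh2 gave 849.5 and 1369 and 61.9 and 79.6. The differences were -4.92 ± 0.45 and -3.95 ± 0.45 (adjusted p = 4.57e-05 and 3.04e-04). The unconditioned arrays of Myh3 lay within the time zero range, and those of Myh2 above it. Prkag2, a regulatory subunit of the AMP-activated kinase, gave 4436 and 6479 without and 563 and 542 with conditioning, against 2355, 1159, 1292 and 2574 at time zero. It was above all time zero arrays in 1 medium and below them in the other (-3.29 ± 0.42, adjusted p = 0.00117, and -1.83 ± 0.36 from time zero, adjusted p = 0.0161). Its other probes gave changes from time zero of 0.16 and 0.28. Atp2b2, Klf15 and Dhrs7c differed by -3.83, -3.30 and -3.17 (adjusted p = 0.0101, 0.0255 and 0.0178). Fn3k, Perm1, Myom2 and Tnni3k differed by -2.58, -2.56, -2.26 and -2.24 (adjusted p = 0.0161, 0.0126, 0.0211 and 0.0161). Prkag2 (adjusted p 0.2 and 0.247) did not pass without conditioned replicate 2 or without replicate 3. Prkag2 (adjusted p 0.0776) did not pass with no filter on dim probes. Prkag2 (adjusted p 0.0652) did not pass without the intensity trend. Prkag2 (adjusted p 0.746) did not pass when the probes of a gene were averaged. The change of Dclk1 was 1.24 when the probes of a gene were averaged.

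**Figure D4:**
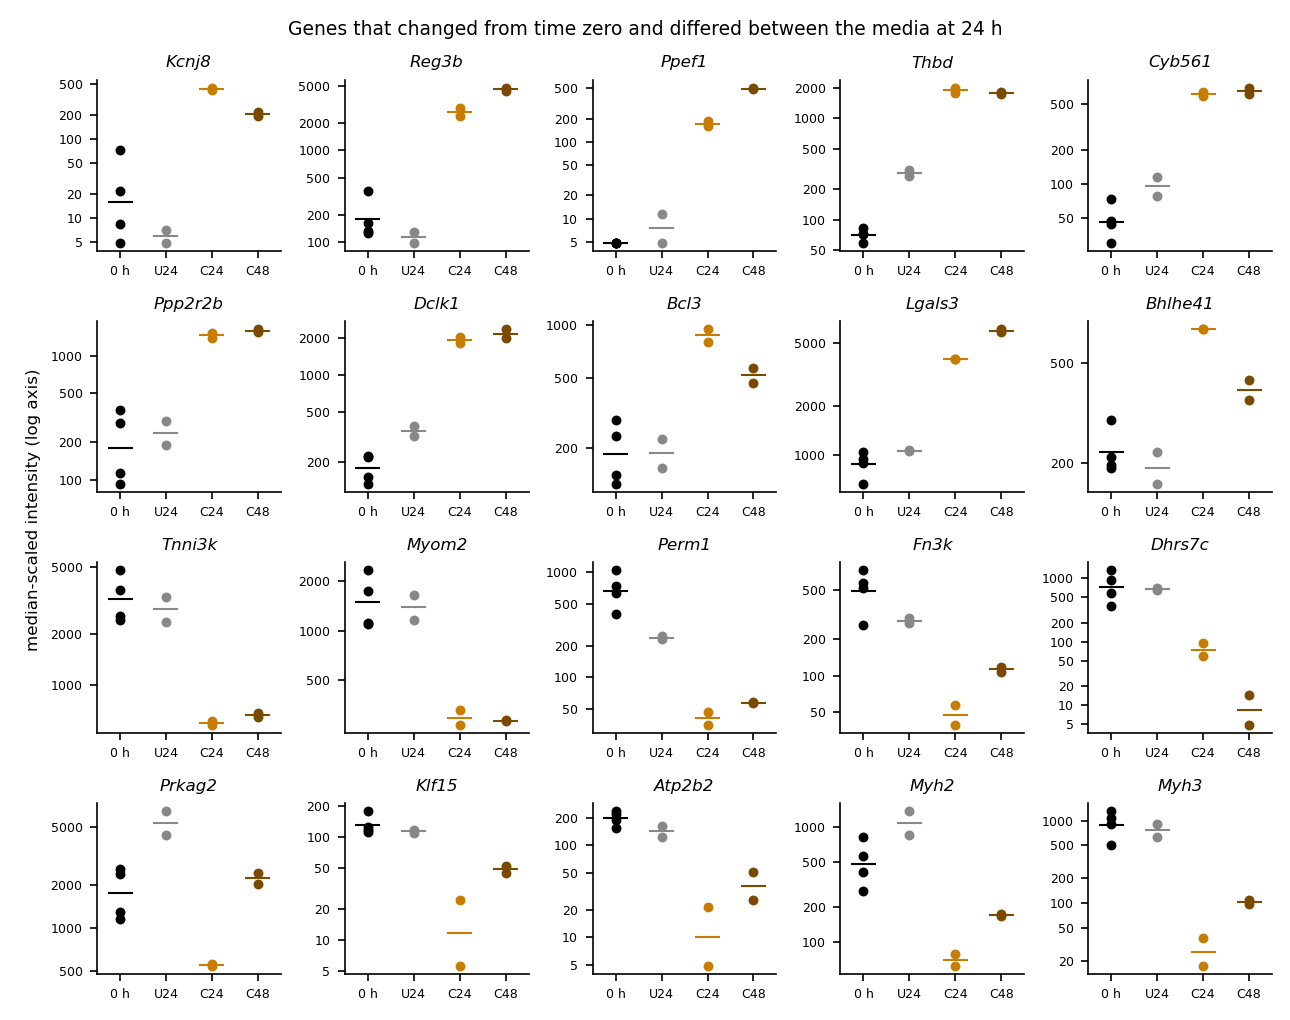
Each panel is a gene that passed against time zero and against unconditioned medium at 24 h, on a log axis of median-scaled intensity. Points are arrays at time zero (0 h), in unconditioned medium at 24 h (U24) and in conditioned medium at 24 h (C24) and 48 h (C48), and bars are geometric means. The C24 points of Myh3 sit at 17.2 and 38.0, below all others of that gene, and those of Reg3b at 2377 and 2915, above all time zero and U24 points.

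For other genes the difference between the media did not pass. Against the same time zero arrays, 115 of 9953 genes passed in unconditioned medium at 24 h (1.16%), and the values stand side by side because the comparisons share those arrays. Cdkn2b gave 273 and 349 in unconditioned medium, a change of 4.64 (adjusted p = 0.00143). Fgl2 gave 162 and 148, Igfbp5 38.1 and 73.7, Id1 249 and 416 and Aldh3a1 862 and 1139. Their changes from time zero were 3.13, -4.76, -2.92 and 2.77 (adjusted p = 3.95e-04, 0.015, 7.41e-04 and 3.95e-04). Between the media these genes differed by 0.96 ± 0.76 for Cdkn2b, 0.71 ± 0.44 for Fgl2, 0.22 ± 1.01 for Igfbp5, 0.84 ± 0.40 for Id1 and -0.09 ± 0.39 for Aldh3a1, and none passed. Egr1, Dusp5, Phlda1 and Scd2 changed by 1.60, 1.54, 1.61 and 1.99 in unconditioned medium (adjusted p = 0.026, 0.0386, 0.0143 and 0.0027). The median of the immediate early list was 0.62 there, and that of the skeletal and embryonic isoforms 0.32, against -0.87 with conditioning. Mki67 gave 908 and 778, Ccnb1 1012 and 1291 and Cdk1 3220.4 and 4985 in unconditioned medium at 24 h, above the conditioned pair in each, with differences of -0.54 ± 0.38, -0.56 ± 0.40 and -0.40 ± 0.48 that did not pass. The mitotic list had a median of 0.64 in unconditioned medium at 24 h. A missed threshold with 2 arrays a group does not show that the media acted alike.

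By 48 h in conditioned medium 821 of 9953 genes passed against time zero (8.25%). The direct test of 48 h against 24 h called 1 probe (0.00422%) and 0 genes (0.0%) with limma, while 263 genes had an unadjusted p under 0.05. Leaving out conditioned 24 h replicate 2 or 3, or conditioned 48 h replicate 2 or 3, gave 7, 15, 16 and 6 probes. Myh3 gave 109 and 96.2 at 48 h and 38.0 and 17.2 at 24 h, and Klf15 gave 45.3 and 53.1 and 5.58 and 24.5. Reg3b gave 4782 and 4434 and 2377 and 2915, Kcnj8 216 and 193 and 442 and 419.6, and Dhrs7c 14.3 and 4.84 and 95.2 and 58.7. Of these, Myh3, Klf15 and Kcnj8 were nearer to time zero at 48 h than at 24 h, and Reg3b and Dhrs7c further from it, and no difference between the times passed. Mki67 gave 1529 and 1373 at 48 h against 611 and 553 at 24 h, Ccnb1 1474 and 1574 against 725 and 844, and Cdk1 7254 and 6194 against 2931 and 3181. From time zero they changed by 1.42, 1.23 and 1.69 at 48 h (adjusted p = 0.00669, 0.0202 and 0.0115). The median of the mitotic list was 1.20 at 48 h and 0.32 at 24 h, and that of the endothelial list 1.41 and 0.57.

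The smaller array design measured 4613 of the genes, with 1 conditioned array against 2 of time zero and no test. The study's 18 dishes equal its 18 samples in number, so these may be other dishes of the same harvest, but no label ties an array to a dish. Of the 200 called genes it measured, 198 had the same direction, 168 of 170 that rose and 30 of 30 that fell, against 67.7% of all shared genes. Cdkn2b had a change of 3.38 there, Mustn1 by 4.64, Cyb561 by 4.25, Myh3 by -4.30 and Dhrs7c by -4.28. Thbd and Gja5 moved less than on the larger design, by 1.09 and 0.65. On the larger design 102 called genes had several probes, and in 92 of them all probes had the same sign.

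**Figure D5:**
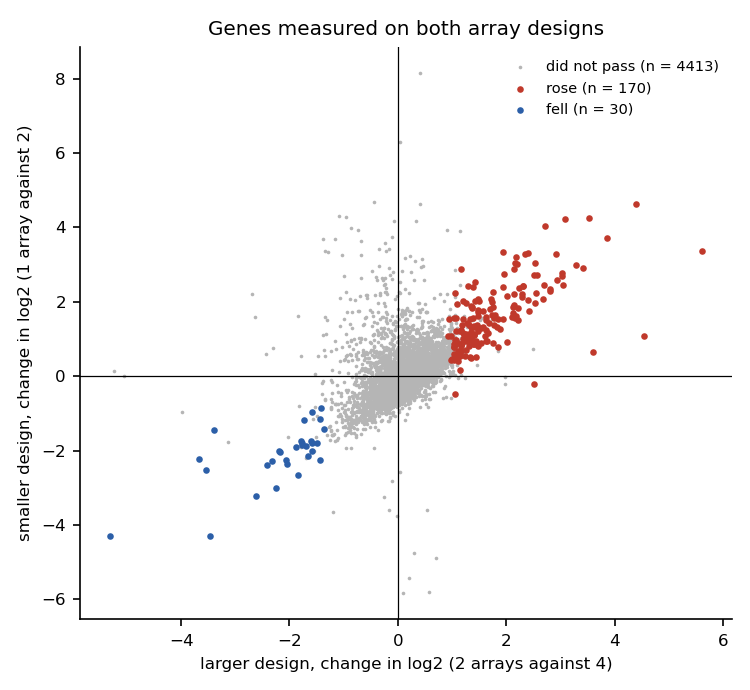
Each point is 1 of 4613 genes measured on both designs, with the log2 change from time zero on the larger design (2 arrays against 4) on the horizontal axis and on the smaller design (1 array against 2) on the vertical axis, each relative to the median change of its probes. Red and blue points passed on the larger design. All but 2 of them lie in the quadrants where both changes have the same sign.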

How the data were processed

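The deposited tables hold 1 intensity per probe and array. How the authors made these intensities (background, scaling, flags) is not given in the sources used here, and the labels' protocols name only the extraction and the labelling kit. Here each array of the larger design (12 arrays, 33849 probes) was scaled to the median, 96.8, floored at 0.05 of it and put on the log2 scale. Probes with a mean above the 30th percentile (23694) were tested with limma 3.58.1 (lmFit and eBayes with an intensity trend, R 4.3.3) over 5 groups, with Benjamini-Hochberg adjustment over all probes. The fit left 7 residual and added 10.4 prior degrees of freedom. The number of arrays limits the precision. GEO's platform annotation named 16753 probes with 1 gene, 165 with several and 16931 with none, and 16724 matched RefSeq. A gene is its probe with the highest mean. Named genes are the 15 largest called increases and decreases, up to 4 members with the smallest p in each of 36 lists, up to 8 in each direction that passed against both time zero and unconditioned medium, and a fixed set of markers. The members and lists were chosen with earlier results of these data known. The fit was tested on simulated data for conditioned medium at 24 h against time zero, with 200 of 23694 probes changed by a set fold. When the planted fold was 2, the fit recovered 0% of these probes and made 0 false calls. When it was 4, the share was 49% with 4 false calls, and when it was 8, 79.5% with 7. A list in which no gene passed may therefore still hold changes of about 2-fold. The simulated noise was drawn independently for each probe and array, and fewer probes were changed than the 751 called in the data. The recovered shares thus describe the simulation and are no measure of the power in the data, where called increases began at 0.93. Tables and figures were made with Python 3.11.15, pandas 2.3.3 and matplotlib 3.10.9. Alternatives changed the scaling, floor, filter, variance model, arrays fitted and rule for probes.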

Additional observations from a re-analysis of the deposited data

Results flagged for a closer look

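Genes whose level in conditioned medium at 24 h differed from that in unconditioned medium by a direct limma test drew attention first, each given as a log2 difference. The direct test called 15 genes higher and 16 lower, and only named genes that also passed against time zero are given here. The higher ones were Kcnj8 (6.19), Reg3b (4.53), Ppef1 (4.52), Thbd (2.70), Cyb561 (2.67), Ppp2r2b (2.61), Dclk1 (2.43), Bcl3 (2.21), Lgals3 (1.89) and Bhlhe41 (1.83). The lower ones were Myh3 (-4.92), Myh2 (-3.95), Atp2b2 (-3.83), Klf15 (-3.30), Prkag2 (-3.29), Dhrs7c (-3.17), Fn3k (-2.58), Perm1 (-2.56), Myom2 (-2.26) and Tnni3k (-2.24). Their adjusted p-values stand with the results above.

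A single time zero array stood away from the other 3 in 4 genes of 165 examined by Dixon's test, which flags about 1 in 20 groups by chance. Mustn1 was at 17.6 on replicate 4, among time zero intensities of 63.4, 17.6, 55.1 and 65.4. Abi3 was at 15.9 on replicate 6, among 78.6, 79.4, 67.9 and 15.9. Ddx25 was at 431 on replicate 4, among 153, 431, 131 and 129.9. Slc4a1, the anion exchanger of red cells, was at 751 on replicate 5, among 115, 120.4, 751 and 102.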

How the results depend on the processing

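Counts of called probes moved with the processing, and the cause was not tested. For conditioned medium at 24 h against time zero, 751 probes became 1997 after quantile normalization, 1922 after scaling to the 75th percentile, 386 with no filter, 473 without the intensity trend and 2329 without the 3 arrays that stood apart, and leaving out 1 array gave 185 to 1204. Against unconditioned medium at 24 h, 58 probes became 301, 258, 12, 29 and 828 under the same settings and 765 when only these groups were fitted, and leaving out 1 array gave 19 to 61. For 48 h against 24 h in conditioned medium, 1 probe became 7, 12, 0, 3 and 87 under those settings, 4 with a filter at the 50th percentile, 0 with the higher floor (0.2 of the median) and 1589 when only these groups were fitted, and leaving out 1 array gave 6 to 16. Where an arm kept 1 array, it was assumed to vary like the other groups.

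None of the 89 named genes that were called turned its direction under an alternative run, and the other called genes were not followed through every run. Against time zero, leaving out arrays could hardly turn a called gene. In all 383 called genes the 2 conditioned arrays lay outside the range of the 4 time zero arrays. Some list medians turned. Without the 3 arrays apart the leukocyte, erythroid and amino acid stress lists turned. After quantile normalization the smooth muscle list turned from 0.11 to -0.12, the amino acid stress list from 0.08 to -0.08 and the glucocorticoid list from -0.03 to 0.03. Of the 89 named genes that were called, 24 did not pass with no filter, 14 without the intensity trend, 11 against the median change, 10 when only these groups were fitted, 5 with probes averaged, 2 with a pseudocount, and 1 each with quantile normalization, scaling to the 75th percentile and the higher floor. Without conditioned replicate 2 or 3, 42 and 48 did not pass. Without time zero replicates 3, 4, 5 and 6, 4, 1, 11 and 0 did not pass. No paired analysis was possible because the labels give no replicate numbers and those used follow accession order. Signals near the floor carry little information on size.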

Other observations

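More than 8-fold lower without passing were 17 genes, and 0 were more than 8-fold higher. In 7 of the 17 the conditioned arrays and the time zero arrays overlapped. In 5 of them, chosen after their values were seen, 1 conditioned array was at the floor while the other was above the lowest time zero array. Flna, the actin cross-linker filamin A, gave 4.84 and 8788 on the conditioned arrays and 8509, 4309, 4401 and 8385 at time zero (a change of -5.06, limma adjusted p = 0.13). Tmem50a gave 4.84 and 8795 against 10986, 4464, 5034 and 8882. Eif2b2, a subunit of a translation initiation factor, gave 7071 and 4.84 against 7495, 4943, 4616 and 7198, with the floor on the other conditioned array. Ppp2r5d and Fxr2 gave 4.84 and 1809 and 4.84 and 999.6.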
